A study of Mus musculus with 9 samples.

Results

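The Toll-like receptor genes Tlr1 to Tlr9 and the adaptor gene Myd88 were taken from the deposited table by their symbols, and all 10 were found among its 27179 genes. Liver m-lobe tissue of C57BL/6J mice labelled as wild type was profiled by bulk poly(A) RNA-seq. Every mouse was injected retro-orbitally at 17 months of age with 3e11 vector genomes of an AAV8 vector, and its liver was taken 3 weeks later. The vector combined a U6-driven guide RNA with saCas9, a compact nuclease that the hepatocyte promoter TBG drives. The guide was directed at Ccnd1, the gene of cyclin D1 (sgCcnd1, n = 5), or at the Rosa26 locus (sgRosa26, n = 4), so the controls also carried vector, nuclease and guide. Editing was therefore directed at hepatocytes, whereas RNA came from all cells of the lobe. In such bulk samples, fewer cells of a type and less RNA per cell cannot be told apart.

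Toll-like receptors bind molecules of microbes and of damaged cells and pass the signal on through their intracellular TIR domain. TLR1, TLR2, TLR4, TLR5 and TLR6 act at the cell surface, whereas TLR3, TLR7, TLR8 and TLR9 bind nucleic acids in endosomes. MyD88 is the adaptor of all of these receptors except TLR3, which signals through TRIF, the product of Ticam1, and TLR4 uses both. In the liver, Kupffer cells, other macrophages, dendritic cells, B cells, endothelial cells and hepatocytes express different sets of them.

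Following the table's columns, the sgRosa26 libraries are called A, B, C and D and the sgCcnd1 libraries E, F, G, H and I. They held 10840595 to 20176201 reads assigned to genes. Ccnd1 itself was at 744 ± 110 normalized counts in sgRosa26 (SD, n = 4) and 362 ± 40.6 in sgCcnd1 (SD, n = 5), without overlap (limma adjusted p = 0.0116). Library H stands apart in the Y-linked gene Ddx3y, where it had 2.00 normalized counts and each of the others 809.9 to 1154, and the labels give no sex. As H is an sgCcnd1 library, the groups are not balanced in this gene. Whether the mice differed in sex was not tested. Marker genes of hepatocytes summed to 1605560 to 2075400 normalized counts per library. No gene of the 10 cell type marker lists was at 0 in all 9 libraries. Some were near it, as the neutrophil marker Ly6g had at most 0.88 normalized counts in sgRosa26 and 0 in sgCcnd1. Nothing in the labels says whether mice of a group were handled together, and p-values measure only the spread between these libraries.

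Sequences are shown for 2 reasons, the closeness of Tlr1 and Tlr6 and the promoters of Tlr9 and Myd88, the receptor with non-overlapping groups and the shared adaptor. Tlr1 and Tlr6 lie 18.47 kb apart on the same strand of chromosome 5. The longest stretch that their transcripts share letter for letter has 229 bases, all of them coding, at chr5:64925537-64925765 in Tlr1 and chr5:64953828-64954056 in Tlr6 (GRCm38, minus strand). A read inside it fits both genes equally well.
Tlr1 and Tlr6 shared stretch: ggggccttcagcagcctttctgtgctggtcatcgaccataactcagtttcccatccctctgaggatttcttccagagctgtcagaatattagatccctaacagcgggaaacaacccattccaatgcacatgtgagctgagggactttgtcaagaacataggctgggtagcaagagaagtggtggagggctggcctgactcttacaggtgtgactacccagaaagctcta
Of all 50-base windows of Tlr1 transcripts, 13.6% also occur in Tlr6, and 12.3% of those of Tlr6 occur in Tlr1. Counting all other genes, 15.4% of the Tlr1 windows are shared. Reads from such windows can be split or dropped, and how they were counted is not given in the sources used here, so the values of these paralogs are uncertain. Tlr2, Tlr5, Tlr7, Tlr8 and Tlr9 share no such window with any other annotated gene.

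The promoter windows are from RefSeq (GRCm38.p6), which gave one or more windows for 8 of the 10 genes, and are shown in the direction of transcription. That of Myd88 is shown only up to the first exon base that GENCODE gives there. Capitals mark matches to the letters GAGGAA (the core bound by PU.1-type ETS factors), TGANTCA (AP-1) or GAAA, any 2 bases and GAAA (an interferon-response element).
Tlr9, chr9:106222348-106222597, plus strand: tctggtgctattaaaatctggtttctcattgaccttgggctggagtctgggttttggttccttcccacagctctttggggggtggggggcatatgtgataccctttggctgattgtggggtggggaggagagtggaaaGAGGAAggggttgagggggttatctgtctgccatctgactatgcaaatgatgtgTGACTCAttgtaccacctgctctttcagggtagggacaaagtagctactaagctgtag
Myd88, chr9:119340042-119340268, minus strand: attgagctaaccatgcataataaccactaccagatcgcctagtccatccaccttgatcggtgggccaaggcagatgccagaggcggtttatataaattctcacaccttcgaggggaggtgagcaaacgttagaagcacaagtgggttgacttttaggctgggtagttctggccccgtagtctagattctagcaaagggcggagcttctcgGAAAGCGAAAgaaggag
Both strands of the 250 bases before each start were searched, and no base is shared by matches to different motifs in the windows shown. GAGGAA begins 112 bases and TGACTCA 58 bases before the Tlr9 start, and GAAAGCGAAA begins 40 bases before the Myd88 start. Among 32851 promoters, 23.25% hold GAGGAA, 6.75% TGANTCA and 2.98% the interferon-response element. Of the 10 windows of these genes, 3 hold the first, 1 the second and 2 the third. An NF-kB consensus was found in 2 of the 10, those of Tlr2 and Tlr3, and in 3.9% of all promoters. These matches describe the letters of the windows and show no binding.

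Of the 10 genes, 9 had a lower mean on the log2 scale in sgCcnd1 and 1, Tlr5, a higher one, but 0 passed the test over all genes. The main test, limma on log2(normalized count + 1), took in genes that averaged 10 normalized counts or more, as 7 of the 10 did. Tlr6, Tlr8 and Tlr9 were too low. Of the 7, 0 passed a limma adjusted p of 0.05, as against 0.0077% of the 12993 genes tested, which is Ccnd1 alone. Before adjustment, 0 of the 7 had a limma p under 0.05 and were lower (5.74% of all genes tested) and 0 were higher (5.22%). On the recovered reads, DESeq2 called 0.9% of the genes (0.585% lower) and edgeR 0.0077% at an adjusted p under 0.05, none of the 7 among them, although DESeq2 gave Tlr7 no adjusted p. Without a minimum mean, where all 10 genes enter, 0 of the 10 were called by limma (0.00512% of genes). DESeq2 then called 0.543% of genes (0.333% lower), but gave an adjusted p to only 5 of the 10, namely Tlr1, Tlr2, Tlr3, Tlr5 and Myd88, and called none of these. The log2 fold change was below 0 in 6 of the 7 (47.1% of all genes tested), with a median of -0.26 against 0.014 over all genes tested. Groups did not overlap in 0 of the 7 (1.97% of all genes tested did not overlap and were lower, 1.92% higher). The count below 0 was 5 of the 7 with quantile normalization, edgeR and DESeq2, and 4 of the 7 without library D or G, as Tlr4, Myd88 or both changed sign. Without library A the median of the 7 was -0.16, with 5 of the 7 below 0. Without library H it was -0.15, and 9 of all 10 genes lay below 0 as with it, with medians over the 10 of -0.35 without H and -0.32 with it.

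**Figure D1:**
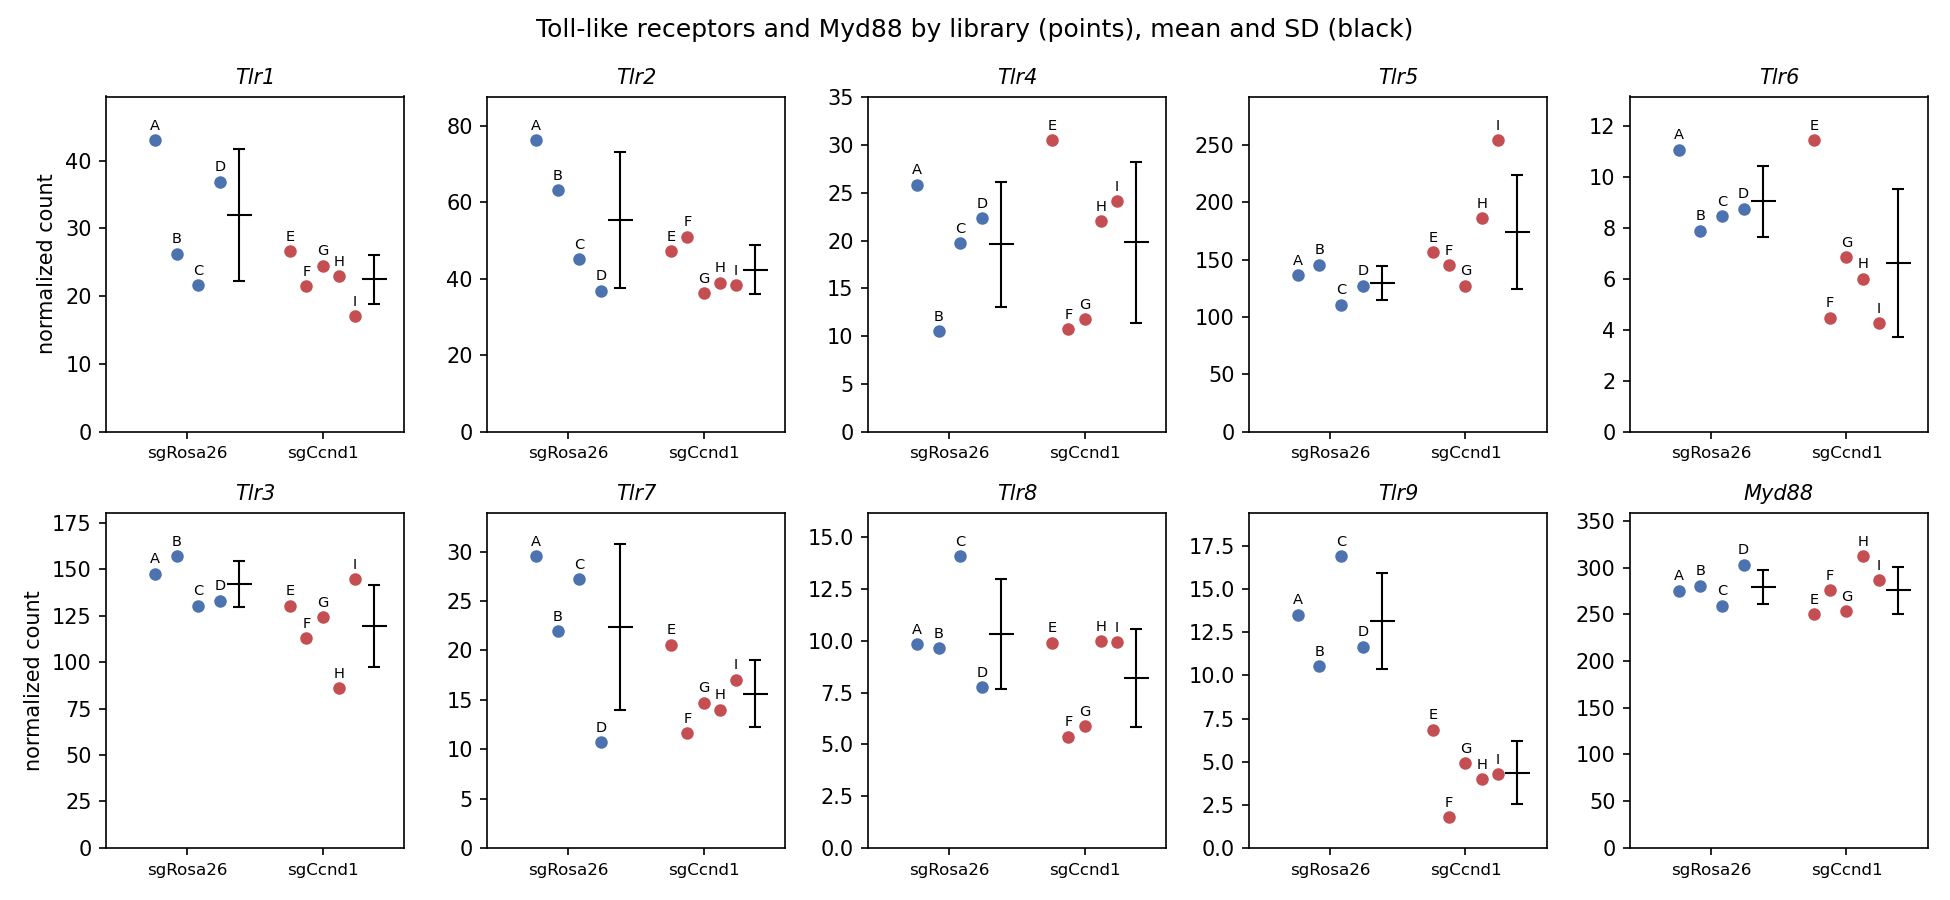
Normalized counts (vertical axes, each from 0) of the 9 Toll-like receptor genes and Myd88 in the 4 sgRosa26 and 5 sgCcnd1 libraries (horizontal axis); lettered points are libraries and black bars the mean and SD. In the Tlr9 panel all sgCcnd1 points, 1.79 to 6.86, lie below all sgRosa26 points, 10.5 to 16.9, and in the other 9 panels the groups overlap.

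Tlr9 showed the largest difference of the 10 genes. TLR9 is the endosomal receptor for unmethylated CpG DNA, and Tlr9 (Entrez 81897) lies at chr9:106222598-106226883 on the plus strand (GRCm38, GENCODE M21). In sgRosa26 it had 13.5, 10.5, 16.9 and 11.7 normalized counts (A to D), and in sgCcnd1 6.86, 1.79, 4.90, 3.998 and 4.26 (E to I). All 5 sgCcnd1 libraries were thus below the lowest control. The mean was 13.1 ± 2.79 in sgRosa26 (SD, n = 4) and 4.36 ± 1.82 in sgCcnd1 (SD, n = 5), 33.2% of the control. Among genes with a mean of 5 to 10 normalized counts, 2.44% had groups that did not overlap in this direction, and among all genes with reads 1.64% did.

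These values rest on 53 reads in sgRosa26 and 23 in sgCcnd1, at most 18 in a library. With the size factors taken into account, the read ratio was 34.1% (95% exact binomial interval 19.9% to 56.6%, for counting error only). The variance of Tlr9 within groups was 0.799 times that of counting alone. The log2 difference was -1.46 (SE 0.34; 95% interval -2.18 to -0.73), and the exact two-sided permutation p was 0.00794, the smallest that 126 splits can give. When limma was fitted without the minimum mean, its unadjusted p was 0.000802 and its adjusted p 0.288, where 5.34% of genes had an unadjusted p under 0.05 and were lower. With edgeR after its own filter the unadjusted p was 0.000732 and the adjusted p 0.231, a fit that called 0.0076% of genes at an adjusted p under 0.05. Tlr9 thus did not pass a test adjusted over all genes. Without library H the log2 difference was -1.45.

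Levels of cell types that can express Tlr9 are given beside it. The B and plasma cell list summed to 1216 to 2890 normalized counts in sgRosa26 and 982 to 3024 in sgCcnd1, and all 7 that were tested of its 8 genes were below 0 in log2 fold change, 1 of them with an unadjusted limma p under 0.05 (5.74% of all genes tested). Groups did not overlap in 1 of the 7 tested genes (1.97% of all genes tested), Mzb1, the same gene. It had 14.1 ± 4.77 and 7.24 ± 2.17 normalized counts (SD, n = 4 and 5). Mzb1 averaged 10.3 over all libraries, so it passed the minimum mean of 10 only through sgRosa26. The dendritic cell list summed to 199.9 to 254 and 129 to 207, with 5 of 5 tested genes below 0, 1 of them with an unadjusted limma p under 0.05. Siglech, a marker of plasmacytoid dendritic cells, which express Tlr9, had 4.47 ± 3.29 and 3.15 ± 2.59 (SD, n = 4 and 5). The monocyte and macrophage list summed to 3055 to 3648 and 2180 to 2674, without overlap. The Kupffer cell list summed to 2800 to 3979 and 2704 to 3349, with overlap. The part of these cells in the Tlr9 difference was not tested.

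The other endosomal receptors had smaller differences, and their groups overlapped. TLR3 binds double-stranded RNA, and Tlr3 (Entrez 142980; chr8:45395665-45411080, minus strand) was the highest of them. Its normalized counts were 148, 157, 130.5 and 133 in A to D and 130.4, 113, 124, 86.0 and 145 in E to I. Library H was the lowest, and 4 of the 5 sgCcnd1 libraries were below the lowest control, E by less than 1 normalized count. The log2 difference was -0.26 (SE 0.15; 95% interval -0.58 to 0.06; limma adjusted p = 0.531). Without H it was -0.15. Exons of Tlr3 overlap those of the antisense gene Gm45542 over 381 bases, and the use of strand in counting is not given in the sources used here.

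Tlr7, the gene of a receptor of single-stranded RNA, and its close relative Tlr8 are neighbours 40.6 kb apart on chromosome X. Tlr7 (Entrez 170743; chrX:167304929-167330558, minus strand) had 29.5, 21.9, 27.2 and 10.7 normalized counts in A to D and 20.6, 11.6, 14.7, 14.0 and 17.0 in E to I. Controls A, B and C were above all sgCcnd1 libraries, but control D was the lowest library of all. The log2 difference was -0.43 (SE 0.30; 95% interval -1.08 to 0.23; limma adjusted p = 0.624). Tlr8 (Entrez 170744; chrX:167242696-167264329, minus strand) had 9.84, 9.64, 14.1 and 7.77 in A to D and 9.91, 5.37, 5.87, 10.00 and 9.93 in E to I. Only F and G lay below the lowest control. Its log2 difference was -0.31 (95% interval -0.97 to 0.35), with an exact permutation p of 0.286. Without library H the log2 difference was -0.39 for Tlr7 and -0.39 for Tlr8.

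The lipoprotein receptors were examined next. TLR2 pairs with TLR1 or TLR6 to bind bacterial lipoproteins. Tlr1 (Entrez 21897; chr5:64924679-64933563, minus strand) had 43.0, 26.3, 21.6 and 36.9 normalized counts in A to D and 26.7, 21.5, 24.5, 23.0 and 17.0 in E to I. Controls A and D were above every sgCcnd1 library, while B and C lay among them. The log2 difference was -0.45 (SE 0.23; 95% interval -0.96 to 0.05; limma adjusted p = 0.501). Tlr2 (Entrez 24088; chr3:83836272-83841767, minus strand) had 76.2, 63.1, 45.1 and 36.9 in A to D and 47.3, 51.0, 36.2, 39.0 and 38.3 in E to I. Here A and B were the 2 highest libraries, and C and D lay within the range of sgCcnd1. The log2 difference was -0.33 (SE 0.21; 95% interval -0.80 to 0.13; limma adjusted p = 0.583).

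Tlr6 (Entrez 21899; chr5:64952031-64960097, minus strand) was the lowest of the 10 genes per length. It had 11.1, 7.89, 8.45 and 8.74 normalized counts in A to D and 11.4, 4.48, 6.85, 6.00 and 4.26 in E to I. Library E was the highest of all 9, and the other 4 sgCcnd1 libraries were below the lowest control. The log2 difference was -0.46 (95% interval -1.15 to 0.23), with an exact permutation p of 0.135. Without E it was -0.66 (exact permutation p = 0.0286, the smallest for 4 against 4). The Tlr6 groups hold 36 reads each, and its variance within groups was 0.949 times that of counting.

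TLR4 is the receptor of lipopolysaccharide, which it binds together with MD-2, the product of Ly96. Tlr4 (Entrez 21898; chr4:66827584-66930284, plus strand) had 25.8, 10.5, 19.7 and 22.3 normalized counts in A to D and 30.5, 10.7, 11.7, 22.0 and 24.1 in E to I. Libraries B, F and G formed the low end and E the high end, so low and high values occurred in both groups. The mean was 19.6 ± 6.55 and 19.8 ± 8.44 (SD, n = 4 and 5), with a log2 difference of -0.022 (SE 0.35; 95% interval -0.78 to 0.74; limma adjusted p = 0.988). Its sign changed with the scaling, to 0.13 after quantile normalization and 0.030 with edgeR. Ly96 was at 57.3 ± 11.8 and 58.4 ± 15.2 and Cd14, another co-receptor, at 31.3 ± 4.71 and 31.5 ± 5.79 (SD, n = 4 and 5).

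Tlr5, the gene of the flagellin receptor, was the only one of the 10 with a higher mean on the log2 scale in sgCcnd1. Tlr5 (Entrez 53791; chr1:182954788-182976044, plus strand) had 136, 146, 111 and 127 normalized counts in A to D and 156, 145, 127, 186 and 254 in E to I. Libraries E, H and I were above the highest control, and F and G within the range of the controls. The mean was 130.0 ± 14.8 and 174 ± 49.7 (SD, n = 4 and 5), with a log2 difference of 0.38 (SE 0.18; 95% interval -0.01 to 0.77; limma adjusted p = 0.460). Before adjustment the limma p was 0.0539. Library I held the highest value, and without it the log2 difference was 0.23. The variance of Tlr5 within groups was 7.54 times that of counting alone, the highest such ratio of the 10 genes.

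Myd88 differed less than its replicates did. Myd88 (Entrez 17874; chr9:119335934-119341411, minus strand) had 275, 280.5, 259 and 303 normalized counts in A to D and 250.05, 276, 254, 312 and 287 in E to I. The groups covered nearly the same range, and the highest and the lowest library were both sgCcnd1. The mean was 279 ± 18.2 and 276 ± 25.4 (SD, n = 4 and 5), with a log2 difference of -0.023 (SE 0.10; 95% interval -0.23 to 0.18; limma adjusted p = 0.949). This interval is the narrowest of the 10. In GENCODE M21, Myd88 exons overlap those of Acaa1a on the other strand over 290 bases, 11.26% of their length, so some of these reads may belong to Acaa1a. Acaa1a, a peroxisomal thiolase gene, was at 1806 ± 562 and 2099 ± 284 (SD, n = 4 and 5; limma adjusted p = 0.627).

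**Figure D2:**
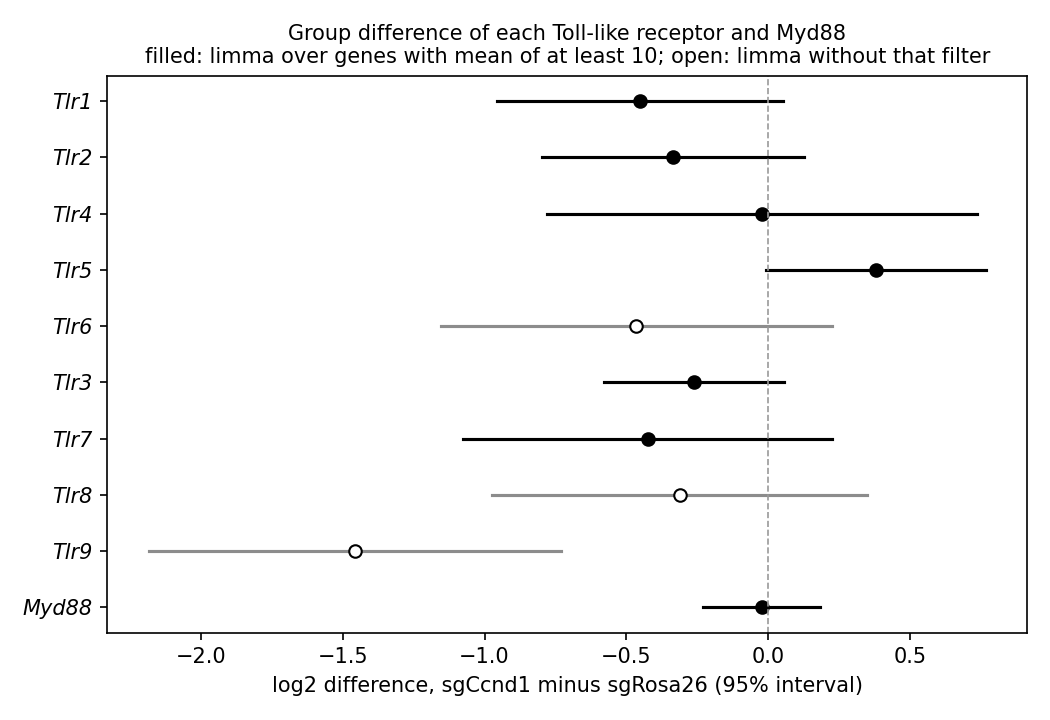
Log2 difference between groups (horizontal axis, sgCcnd1 minus sgRosa26) with its 95% interval for each gene (vertical axis), from limma over genes with a mean of at least 10 (filled) or over all genes with reads (open). The Tlr9 interval, -2.18 to -0.73, lies below 0, and the other 9 include 0.

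By library, the low values were not shared evenly. In F, 9 of the 10 genes were below the sgRosa26 mean of log2 values, with a median of -0.62, and in G all 10 were, with a median of -0.41. In H 7 were below it (median -0.42), in E 7 (median -0.07) and in I 6 (median -0.15). Controls D and C reached the same counts, with 7 (median -0.06) and 6 (median -0.09), whereas B had 5 and A 2. Control A was the highest of all 9 libraries for 3 genes, Tlr1, Tlr2 and Tlr7. Tlr9 was the gene with the lowest value relative to the controls in each of the 5 sgCcnd1 libraries, from -0.83 in E to -2.32 in F.

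**Figure D3:**
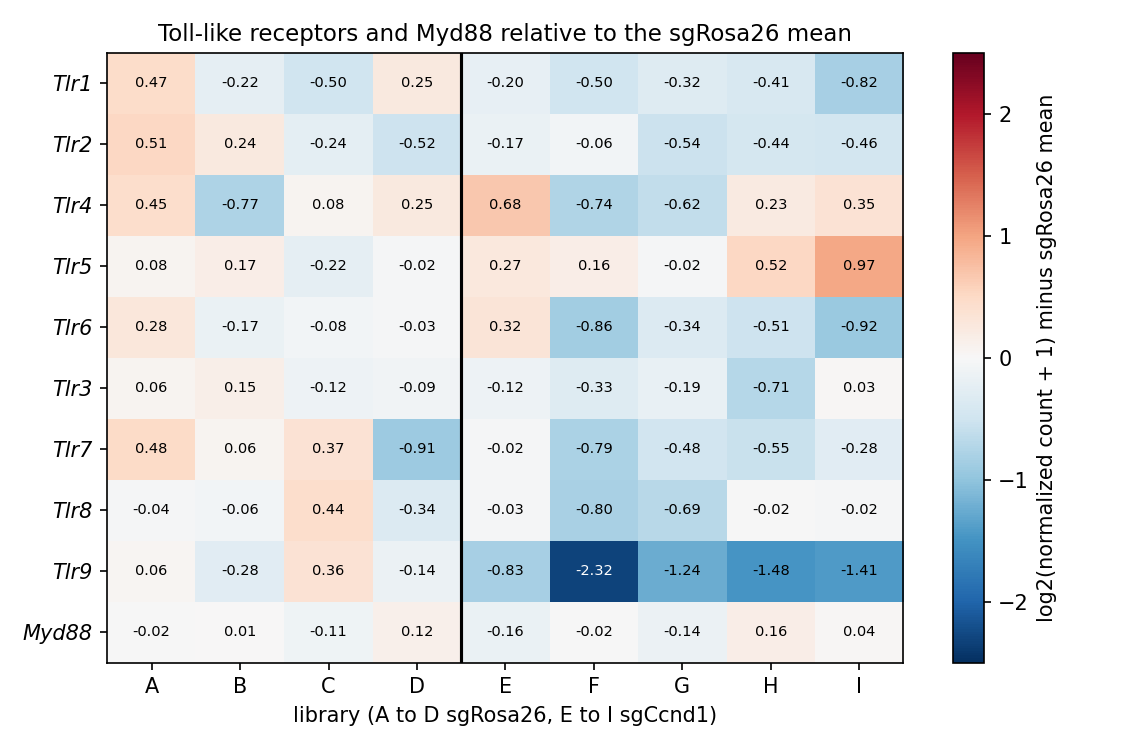
Log2(normalized count + 1) minus its sgRosa26 mean (colour and printed value) for each gene (rows) and library (columns, sgRosa26 left of the line). The Tlr9 row runs from -0.83 to -2.32 in sgCcnd1, and Tlr5 reaches 0.97 in library I.

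To compare levels between the genes, normalized counts were divided by the length of the merged exons in kb. Myd88 came first with a mean over all 9 libraries of 107.7 per kb, followed by Tlr5 with 32.2, Tlr3 with 24.9, Tlr2 with 16.0 and Tlr1 with 7.99. Tlr7 had 4.55 per kb, Tlr4 3.55, Tlr8 2.55, Tlr9 2.38 and Tlr6 2.06. Only the ranges of Myd88 and Tlr5 did not overlap between neighbours in this order. The order of neighbours held in 8 or 9 of 9 libraries from Myd88 down to Tlr7. It held in only 5 of 9 for Tlr7 over Tlr4, for Tlr8 over Tlr9 and for Tlr9 over Tlr6, and in 7 for Tlr4 over Tlr8. In sgRosa26 alone Tlr9 was at 3.78 per kb, above Tlr4 at 3.53 and Tlr8 at 2.88. In sgCcnd1 it was the lowest of all, at 1.25 per kb.

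**Figure D4:**
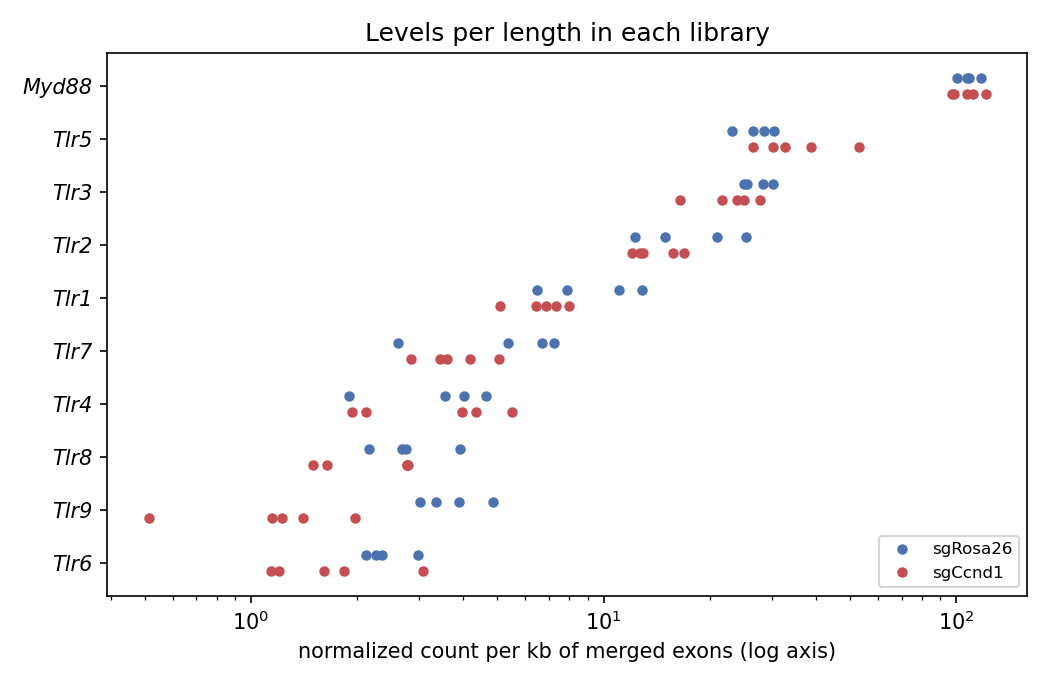
Normalized counts per kb of merged exons (horizontal log axis) in each library (points, coloured by group), with genes ordered by their mean (vertical axis). Myd88 stands apart from the receptors at 97.1 to 121 per kb, and Tlr9 is the only gene whose groups do not overlap.

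Differences in response were tested within 5 pairs of related genes, as the log2 ratio of the first to the second. The ratio of Tlr7 to Tlr9, both endosomal receptors, was 0.65 ± 0.54 in sgRosa26 (SD, n = 4) and 1.68 ± 0.31 in sgCcnd1 (SD, n = 5). The difference was 1.03 (exact permutation p = 0.00794; adjusted over the 5 pairs 0.0397, the smallest this design gives for a lone pair). It is made up mostly of the Tlr9 difference of -1.46, with -0.43 for Tlr7, and is no separate evidence of it. With a pseudocount of 10 it was 0.39, with an adjusted exact permutation p of 0.0794. For the neighbours Tlr1 and Tlr6 the difference was 0.013 (exact permutation p = 0.968), and their shared stretch limits how far they can be told apart. For Tlr7 and Tlr8 the difference was -0.11 (exact permutation p = 0.659), and for Tlr2 and Tlr4 it was -0.31 (exact permutation p = 0.532). The adaptors Myd88 and Ticam1 differed by 0.18 (exact permutation p = 0.413). After adjustment over the 5 pairs, these 4 had p-values of 0.823 or 0.968 by the exact permutation test, which does not show that the genes of a pair respond alike.

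The rest of the pathway was followed in 85 further genes, of which 69 were tested. None was called at a limma adjusted p under 0.05. Before adjustment 12 were lower and 2 higher at a limma p under 0.05, as against 5.74% and 5.22% of all genes tested, and DESeq2 called 2 lower (0.585% of all genes), Irf7 and Cxcl10. The 2 higher genes were Tollip and the adaptor gene Tirap. Tirap was at 456 ± 71.5 and 580 ± 66.5 normalized counts, with overlapping groups (limma adjusted p = 0.334). The median log2 fold change of the 69 was -0.03. Among the 69, groups did not overlap in 6 lower and 1 higher gene, all with an unadjusted limma p under 0.05, as against 1.97% and 1.92% of all genes tested. Outside the 69, the groups of the interleukin gene Il12b did not overlap either, at 1.94 to 11.4 and 0 to 1.79 normalized counts. It was the only such gene of the 16 not tested, and 1.64% of all genes with reads were lower without overlap.

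Of the 6, Ifi30 and Ctss take part in endosomal processing, where the cathepsin S made from Ctss cleaves endosomal receptors. Ifi30, a lysosomal thiol reductase, was at 242 ± 22.9 and 182 ± 19.6 normalized counts (SD, n = 4 and 5; limma adjusted p = 0.255). Ctss was at 624 ± 83.6 and 449 ± 82.8 (SD, n = 4 and 5; limma adjusted p = 0.271). Irf7, the transcription factor that induces type I interferon downstream of TLR7 and TLR9, was at 989 ± 269 and 655 ± 93.0 (SD, n = 4 and 5; limma adjusted p = 0.266; DESeq2 adjusted p = 0.0491). Control D stood at 1392 and the other controls at 822 to 871. Cd180, which encodes a relative of the receptors on B cells and other immune cells, was at 38.7 ± 2.42 and 25.7 ± 6.18 (SD, n = 4 and 5; limma adjusted p = 0.315). The kinase gene Ikbke was at 552 ± 83.0 and 445 ± 26.4 (limma adjusted p = 0.334), and Traf3, a ubiquitin ligase gene, at 248 ± 11.2 and 215 ± 16.0 (limma adjusted p = 0.418). The gene that was higher, Tollip, encodes an inhibitor of the pathway and was at 953 ± 80.1 and 1079 ± 30.3 (limma adjusted p = 0.421).

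By role, all 7 tested early target genes were below 0, 3 of them with an unadjusted limma p under 0.05, as against 47.1% and 5.74% of all genes tested, and their median log2 fold change was -0.48. Among the 7, Cxcl1 was below 0 by limma (-0.10) but above it by DESeq2 (0.39), and its mean was higher in sgCcnd1 (243 against 184 normalized counts). Of these, the chemokine gene Cxcl10 was at 119 ± 88.0 and 45.6 ± 10.5 (SD, n = 4 and 5; limma adjusted p = 0.272; DESeq2 adjusted p = 0.0249), and its groups overlapped at 62.9 to 251 and 37.0 to 63.3. Among genes of receptor folding, transport and processing, 8 of 10 were below 0, with a median of -0.09. Unc93b1, which carries TLR3, TLR7 and TLR9 to endosomes, was at 777 ± 36.1 and 723 ± 48.3 (SD, n = 4 and 5; limma adjusted p = 0.649). Of 18 kinase and ubiquitin ligase genes, 7 were below 0 and 11 above, with a median of 0.05. Irak4, the first kinase bound by MyD88, was at 160.0 ± 19.4 and 184 ± 26.2 (limma adjusted p = 0.587), and Traf6, the ubiquitin ligase after it, at 310.2 ± 50.5 and 359 ± 38.7 (limma adjusted p = 0.534).

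Ticam1, the adaptor of TLR3, was at 219.6 ± 44.2 and 189 ± 20.8 (limma adjusted p = 0.627). Of 4 tested genes of other TIR adaptors, 3 were above 0 and the median was 0.26. Transcription factors had 7 of 10 below 0 (median -0.13), inhibitors 3 of 9 (median 0.04), co-receptors 2 of 6 (median 0.01) and receptors of the interleukin-1 family 1 of 3 (median 0.06). Of the Toll-like receptors found in mice but not among the 10, Tlr13 was at 28.8 ± 6.38 and 19.6 ± 5.73 (limma adjusted p = 0.452). Tlr12 was at 233 ± 76.8 and 174 ± 20.8 (limma adjusted p = 0.509), and Tlr11 at 8.10 ± 5.14 and 6.00 ± 2.51, too low to be tested.

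Marker genes of cells that can express these receptors were summed by list, and the groups did not overlap in 1 of the 10 lists. The monocyte and macrophage list summed to 3055 to 3648 normalized counts in sgRosa26 and 2180 to 2674 in sgCcnd1, 71.8% of the control without overlap. All 8 of its genes were below 0 in limma log2 fold change (47.1% of all genes tested), 4 with an unadjusted limma p under 0.05 (5.74%). Among the 8, Ly6c2 was below 0 by limma (-0.13) but above it by DESeq2 (0.21). Its mean was higher in sgCcnd1 (25.4 against 22.1 normalized counts). None of the 8 passed the limma adjusted p, and DESeq2 called 3 lower (0.585%), Mpeg1 (adjusted p = 0.00136), Lyz2 (0.00203) and Cd68 (0.0265). The Kupffer cell list stood at 90.8% of the control, with 6 of 9 genes below 0 and ranges of 2800 to 3979 and 2704 to 3349. The T and NK cell list stood at 50.9%, with ranges of 87.3 to 226 and 49.98 to 156. Of its 8 genes 5 were tested, and all 5 were lower at an unadjusted limma p under 0.05 (5.74% of all genes tested). Among these, Cd3g averaged 20.9 in sgRosa26 and 9.10 in sgCcnd1, so it passed the minimum mean of 10 only through sgRosa26. Of those too low to be tested, Ncr1 was higher in sgCcnd1 (2.95 and 3.30), and Cd3d (10.3 and 4.90) and Klrb1c (4.61 and 4.11) lower. Neutrophil markers stood at 64.6%, with ranges of 49.96 to 120.5 and 37.0 to 66.6. Of the 7 neutrophil genes 2 were tested, and these 2 were below 0. Of those too low to be tested, Ngp (6.23 and 7.04) and Camp (0.47 and 0.59) were higher in sgCcnd1, and Ly6g, Cxcr2 and Retnlg lower. Cholangiocyte markers stood at 77.6%, with 3 of 5 tested genes below 0 and ranges of 931 to 1908 and 753 to 1169. Stellate cell markers stood at 81.1% (7 of 8; 4156 to 6550.3 and 3636 to 5433). At an unadjusted limma p under 0.05, 3 stellate cell, 2 Kupffer cell and 1 cholangiocyte genes were also lower. Sinusoidal endothelial markers, at 97.2% (5 of 8; 3505 to 5084 and 3660 to 5308), and hepatocyte markers, at 97.9% (5 of 8), were near the control. The part of these cells in the values of the Toll-like receptors was not tested.

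**Figure D5:**
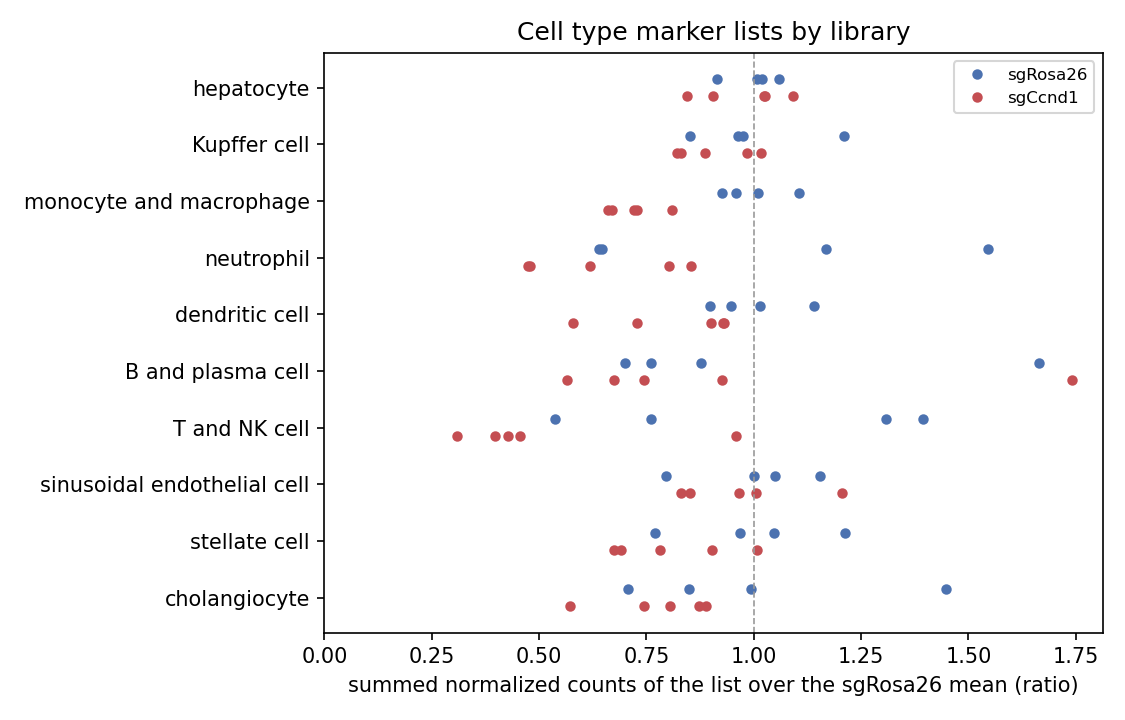
Summed normalized counts of each marker list (vertical axis) in each library as a ratio to the sgRosa26 mean (horizontal axis), points coloured by group. The monocyte and macrophage list is the only list of the 10 whose groups do not overlap, with 2180 to 2674 against 3055 to 3648 normalized counts.

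For each of the 7 genes tested, the genes with the most similar values over the 9 libraries were listed by Pearson's r on the log2 scale, as a description. Tlr2 was closest to Rasgef1b (r = 0.970, Spearman's rho = 0.833), Tlr3 to Pacsin2 (0.969 and 0.95) and Tlr7 to Ptpn13 (0.966 and 0.95). Tlr4 was closest to Mink1 (0.963 and 0.967), Tlr5 to Hnrnpm (0.955 and 0.967), Myd88 to Zfp639 (0.941 and 0.933) and Tlr1 to Adar (0.940 and 0.917). The next genes were Smyd5 and Sgk1 for Tlr2, Kbtbd11 and Slc15a3 for Tlr3, and Add1 and Clk2 for Tlr7. They were Dnajc5 and Supt5 for Tlr4, Fam168b and Plekhb2 for Tlr5, Ing1 and Stk19 for Myd88, and Rmnd5b and Homer3 for Tlr1. Such values are the highest of 12993 over only 9 libraries, which share their size factors and groups.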

How the data were processed

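Poly(A) RNA of 9 liver pieces was sequenced. Per the submitters' processing notes, Trim Galore 0.6.7, HISAT2 2.2.1, featureCounts 2.0.3, FastQC 0.74, MultiQC and DESeq2 2.11.40.8 were used, with builds mm10 and GRCm38. The annotation and the use of strand are not given in the sources used here. The deposited values are a never-negative signal that the table's name calls normalized counts. Columns name the guide target and an animal, which gives each a group but no replicate number. In every library 100% of the deposited values were whole multiples of 1 number (tolerance 0.01 reads), the value of 1 read. Of the 27179 genes, 7657 were at 0 in all libraries and 1319 had no symbol.

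Limma 3.58.1 (R 4.3.3; intensity trend, two-sided, Benjamini-Hochberg adjustment, threshold 0.05) was fitted on log2(normalized count + 1) for 12993 genes averaging 10 or more; this scale understates changes of low genes. Tlr6, Tlr8 and Tlr9 fell below that minimum and have intervals from a fit of all 19522 genes with reads. Single genes and log2 ratios were compared by exact two-sided permutation over 126 splits. Count models on the recovered reads were edgeR 4.0.16 (quasi-likelihood), calling 1 gene, and DESeq2 1.42.0, calling 117, with adjusted p-values it left undefined kept so. In library H 1 read is worth 0.99958, so near 1 that a separate check, which tells read steps from values rounded to whole numbers, could not decide there, and both were also run without H. Procedures were tested on simulated data. Positions and exon lengths are from GENCODE M21 and promoters from RefSeq, both GRCm38. Alternatives were other pseudocounts (0.1, 10), no minimum or one of 100, other scalings, array weights and leaving out each library.

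The 10 genes, the 5 pairs, the 85 pathway genes and the marker lists were chosen with earlier results of these data known. Named from the pathway were genes with an unadjusted limma p under 0.05 and no overlap between groups, and 9 chosen whatever their values (Tlr11, Tlr12, Tlr13, Ticam1, Unc93b1, Cd14, Ly96, Irak4 and Traf6). Cxcl1, Cxcl10, Il12b, Tirap, Mpeg1, Lyz2, Cd68, Ly6c2, Mzb1, Siglech, Acaa1a and Ddx3y were named after their values were seen. So were Cd3d, Cd3g, Klrb1c, Ncr1, Ly6g, Cxcr2, Retnlg, Ngp and Camp. For each gene tested, the 3 genes with the highest Pearson's r were listed. Reads carry no molecular identifiers, so intervals from reads cover counting error only. Figures were drawn with matplotlib 3.10.9.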

Additional observations from a re-analysis of the deposited data

Results flagged for a closer look

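Of 36 groups of values examined, 3 held a library far from the rest of its group, where chance alone gives about 1 in 20, or 1.8. All 3 were pathway genes in the sgRosa26 group and none was a Toll-like receptor or Myd88. For Irf7 this was library D with 1392 normalized counts, while A, B and C had 822 to 871. For Ctss it was library B with 749, while the others had 571 to 590.4. For Tollip it was library A with 834, while the others had 978 to 1005.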

How the results depend on the processing

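No paired analysis was possible because the replicate numbers name different mice and the labels tie no number to a shared litter, batch or day. The depth limits the low receptors most, since Tlr9 had 2 to 18 reads per library and Tlr6 3 to 15.

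Tlr1, Tlr2, Tlr3, Tlr5, Tlr6, Tlr7, Tlr8 and Tlr9 kept their direction under every alternative run for them, but sizes moved with 1 library left out. Tlr1 was -0.30 without A, Tlr2 -0.16 without A and -0.51 without D, and Tlr3 -0.15 without H. Tlr5 was 0.23 without I, Tlr7 -0.27 without A and -0.73 without D, and Tlr8 -0.17 without C and -0.19 without F. Tlr9 ranged from -1.67 to -0.69 over 14 alternatives, with unadjusted or exact permutation p from 0.000732 to 0.0286 by limma, edgeR, DESeq2 or permutation. Tlr4 turned positive with quantile normalization (0.13), edgeR with TMM, RLE or its own filter (0.030, 0.034 and 0.031) and DESeq2 with or without a minimum mean (0.025 and 0.031), and ranged from -0.28 to 0.16 with 1 library left out. Myd88 ranged from -0.068 to 0.017 with 1 library left out.

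The number of Toll-like receptors and Myd88 lower at an unadjusted p under 0.05 was 0, and 1 (Tlr9) without a minimum mean in limma, with edgeR after its own filter and with DESeq2 without a minimum mean. Leaving out 1 library gave 0 to 2, namely Tlr1 without C, Tlr2 and Tlr7 without D, and Tlr3 without I. The number higher was 0, and 1 (Tlr5) with quantile normalization, array weights, edgeR with RLE and DESeq2 with or without a minimum mean. It was 0 to 1 with 1 library left out (Tlr5 without B, F or G). The number whose groups did not overlap was 0, and 1 (Tlr9) without a minimum mean, and 0 to 1 with 1 library left out (Tlr7 without D, Tlr3 without I).

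Of the 7 genes tested, 4 to 6 were below 0 with 1 library left out.

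Over all genes 1 was called, against 2 with quantile normalization, 117 with DESeq2 and 106 with DESeq2 without a minimum mean. Without library H, edgeR called 0 and DESeq2 41. Leaving out 1 library gave 0 (B, D, F, H or I) to 2 (E or G) in limma.

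The Tlr7 to Tlr9 difference was 0.39 with a pseudocount of 10 and 0.78 to 1.17 with 1 library left out, where the smallest adjusted exact permutation p for a lone pair is 0.0893 or 0.143. The Tlr1 to Tlr6 difference was -0.13 with a pseudocount of 10, -0.023 with quantile normalization and -0.13 to 0.15 with 1 library left out. With 1 library left out, Tlr7 to Tlr8 ranged from -0.30 to 0.058, Tlr2 to Tlr4 from -0.57 to 0.025 and Myd88 to Ticam1 from 0.057 (without A) to 0.31 (without B). Apart from the points named, the cause of these changes was not tested.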
